A study of Rattus norvegicus with 48 samples.

Results

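The effect of parathyroid hormone (PTH) on the miRNAs of healthy rat bone was examined in 8 small RNA libraries from the ulna, 4 from PTH-treated and 4 from placebo-treated wild-type (WT) rats, out of 48 libraries in the series. The members were chosen by their labels alone: ulna bone, group WT, and treatment PTH or placebo. The series also held ulna libraries of Zucker Diabetic Fatty (ZDF) rats and serum libraries of both genotypes, of which 8 ZDF ulna and 10 WT serum libraries served for comparison. According to the study's methods, the WT animals were male Zucker lean rats without the homozygous leptin receptor mutation of the diabetic ZDF fa/fa rats. Both WT groups were 11 weeks old at the start, carried a 3 mm defect in the femur midshaft, ate a high-fat, high-carbohydrate chow and were treated for 12 weeks. PTH was injected under the skin 5 times a week at 75 µg/kg, and placebo was the vehicle, injected daily, so that the schedule differed as well as the agent. The frozen bone was ground and its fragments lysed, and a homogenate of this kind can mix bone cells with marrow, vessels, cartilage and attached muscle; whether these were removed is not given in the sources used here. In such a mixture, fewer cells of a type and fewer miRNA molecules per cell cannot be told apart.

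MicroRNAs are short RNAs that bind partly complementary sites in messenger RNAs, mainly through bases 2 to 8 from the 5′ end, the seed, and lower the output of those messages. PTH given in intermittent injections increases bone formation through its receptor on osteoblasts and osteocytes, and raises bone mass. Several miRNA families are known regulators in bone, among them miR-30 and let-7, miR-31 as an inhibitor of osteoblast differentiation, and miR-140 and miR-455 of cartilage, while miR-1 and miR-133 belong to striated muscle and miR-143 to smooth muscle and mesenchymal cells.

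The mature sequences that the results below turn on are shown first, since several of the miRNAs that changed are near copies of each other or of a miRNA that did not pass the test. They are RefSeq sequences (GRCr8), written 5′ to 3′ with the seed, bases 2 to 8, in capitals. Of the 763 rat miRNAs in the files, 686 had such a sequence, and so had 24 of the 30 called below.

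The let-7 pair that fell:
let-7g-5p: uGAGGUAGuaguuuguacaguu
let-7i-5p: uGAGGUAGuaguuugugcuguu
The miR-1 seed, with both miRNAs that rose and the muscle member that did not pass:
miR-1-3p: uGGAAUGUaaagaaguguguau
miR-1b: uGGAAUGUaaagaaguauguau
miR-206-3p: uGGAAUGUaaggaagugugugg
The miR-30 seed, with both miRNAs that rose and a member that did not pass:
miR-30a-5p: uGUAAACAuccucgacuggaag
miR-30e-5p: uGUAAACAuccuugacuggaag
miR-30c-5p: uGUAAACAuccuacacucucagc
The miR-133 seed, with the member that fell and its near copy:
miR-133a-3p: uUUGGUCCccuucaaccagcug
miR-133b-3p: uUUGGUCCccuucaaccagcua
The largest fall, the osteogenesis regulator that fell, a fall and a rise whose groups did not overlap, and the most abundant rise:
miR-455-3p: gCAGUCCAcgggcauauacacu
miR-31a-5p: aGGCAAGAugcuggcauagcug
miR-24-3p: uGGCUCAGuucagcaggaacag
miR-99a-3p: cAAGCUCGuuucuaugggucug
miR-143-3p: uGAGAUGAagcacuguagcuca

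Counting positions from 1 at the 5′ end, miR-1-3p and miR-1b differ by G17A (miR-1-3p first), miR-30a-5p and miR-30e-5p by C13U, and let-7g-5p and let-7i-5p by A17G and A19U. The authors' counting allowed 1 mismatch against miRBase, so the split of reads between miR-1-3p and miR-1b, between miR-30a-5p and miR-30e-5p, and between miR-133a-3p and miR-133b-3p is uncertain. The same holds for other miRNAs that differ by 1 base. Among them are let-7b-5p and let-7c-5p, and let-7a-5p with let-7c-5p, let-7e-5p or let-7f-5p.

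The libraries differed in depth along with the treatment. Reads counted on miRNAs came to 54497, 41627, 163549 and 282285 in PTH replicates 1 to 4 and to 195045, 389490, 574989 and 952131 in placebo replicates 1 to 4. They made up 2.11%, 1.58%, 5.92% and 7.23% of all reads with PTH and 5.06%, 14.8%, 10.7% and 14.8% with placebo. The groups overlapped through placebo replicate 1, which had the lowest share and the lowest depth of its group. The mean log2 difference in share was -1.59 (exact permutation test, two-sided, p = 0.0857, where 4 against 4 libraries allow no p below 0.0286). Between 251 and 482 miRNAs had at least 1 read in a library. Values without the shallow PTH libraries, replicates 1 and 2, are given for the rises and for the lists of miRNAs whose median they moved most. The falls are summarized as a set, with those of the smallest size without these libraries named.

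**Figure D1:**
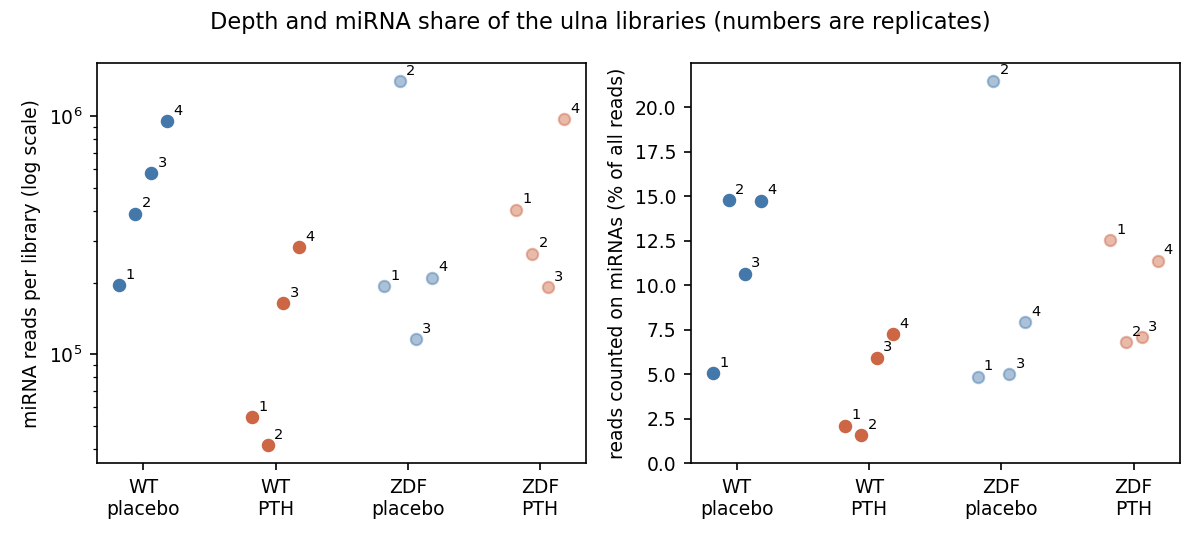
Reads counted on miRNAs (left, log scale) and their share of all reads in percent (right) for each ulna library, 1 point per library with its replicate number. WT PTH replicates 1 and 2, with 54497 and 41627 reads, lie lowest, and WT placebo replicate 1 lies below the other WT placebo libraries in both panels.

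With PTH, 20 miRNAs fell and 10 rose in WT ulna at the study's threshold of an FDR below 0.2, a count that went from 0 to 89 when single libraries were left out. Falls included miR-455-3p of cartilage, miR-31a-5p, miR-214-3p, let-7g-5p, let-7i-5p, the muscle miRNA miR-133a-3p and the lymphocyte miRNA miR-150-5p. Rises included both arms of miR-30a and miR-30e, miR-1-3p and miR-1b, miR-143-3p, miR-148a-5p, miR-532-5p and miR-99a-3p. These 30 were 16.8% of the 179 miRNAs tested with edgeR's quasi-likelihood test, 5.59% of the miRNAs tested being higher and 11.2% lower, and 34 had an unadjusted p below 0.05. The smallest FDR was 0.112, so none would have been called at 0.05. Log2 fold changes of the falls ran from -3.10 to -0.95 with a median of -1.67, and those of the rises from 1.26 to 2.64 with a median of 1.62, against a median of -0.08 over all 179. These values are relative to the bulk of the miRNAs. When the libraries were scaled to all their reads, the median of all fitted miRNAs moved to -1.23 and the calls became 0 higher and 68 lower, and with the controls added at library preparation it moved to -0.80 with 1 higher (miR-148a-5p) and 57 lower. On all reads, 7 of the 10 rises had a log2 fold change below 0 and their median was -0.071, beside -3.03 for the falls. On the added controls these medians were 0.67 and -2.43. With the log2 miRNA share of each library as a covariate, edgeR called 0 miRNAs and 18 had an unadjusted p below 0.05.

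**Figure D2:**
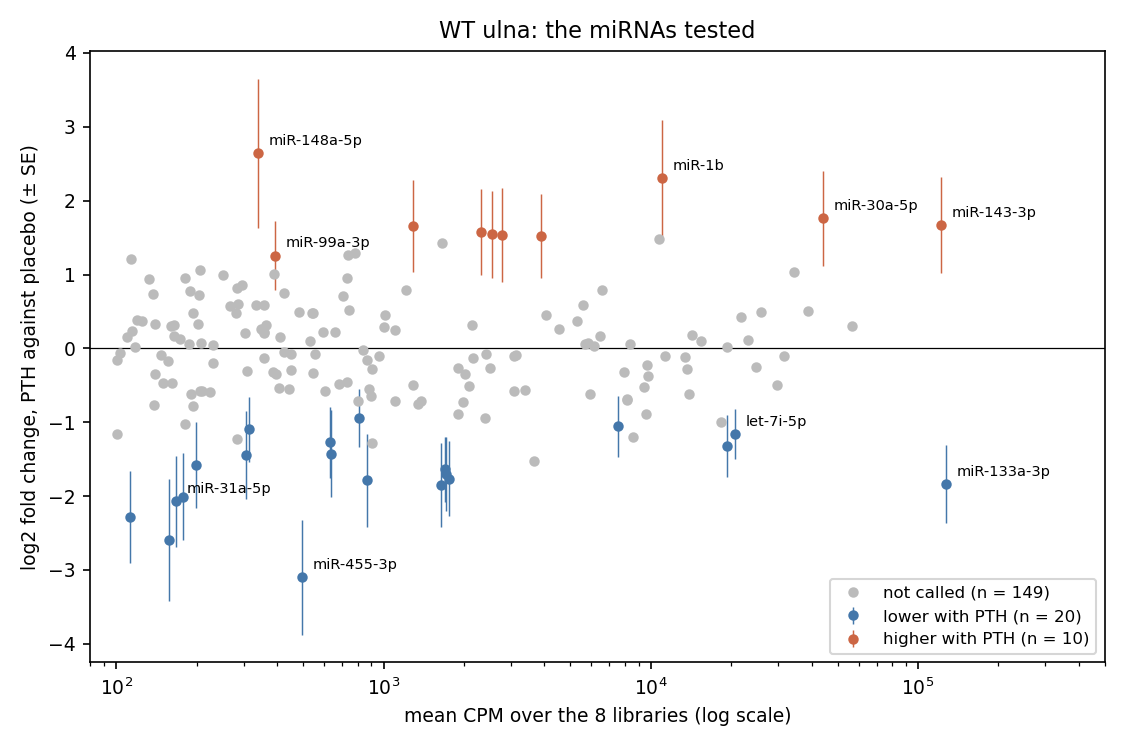
Log2 fold change of PTH against placebo in WT ulna for each of the 179 miRNAs tested, against its mean CPM over the 8 libraries (log scale), with bars of 1 SE for called miRNAs. The 20 that fell (blue) and the 10 that rose (orange) span the abundance range, with miR-133a-3p and miR-143-3p at its upper end.

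Few of the miRNAs tested had groups that separated fully. Of the 179 miRNAs, 7 (3.91%) had PTH and placebo libraries that did not overlap, and 5 of these were called: let-7g-5p, let-7i-5p, miR-24-3p and miR-151-5p among the falls and miR-99a-3p among the rises. Any 4 against 4 libraries without overlap give the smallest exact permutation p, 0.0286, so that p adds nothing to the separation. With labels assigned at random, a single miRNA has this same probability of no overlap, beside the 3.91% observed. The miRNAs are not independent of each other. Also without overlap were miR-28-5p at -0.54 and miR-100-5p at 0.79, which were not called. For the called miRNAs whose groups overlapped, the exact permutation p ran from 0.0571 to 0.229, above 0.05 in each.

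let-7g-5p held 920.3, 758, 888 and 731 CPM in PTH replicates 1 to 4 and 1612, 4752, 1813 and 2089 CPM in placebo replicates 1 to 4. Every PTH library lay below every placebo library, and the log2 fold change was -1.64 (SE 0.44, edgeR FDR = 0.112). let-7i-5p held 14432, 8625, 13186 and 14758 CPM in PTH replicates 1 to 4 and 23983, 34193, 25558 and 30231 CPM in placebo replicates 1 to 4. The PTH values again lay lower throughout, with a log2 fold change of -1.16 (SE 0.34, edgeR FDR = 0.112). The let-7 family, which represses growth and cell-cycle genes, had 11 members tested with miR-98, of which 2 fell, none rose and 9 had a log2 fold change below 0. Over all 179 miRNAs tested, 11.2% fell and 94 had a log2 fold change below 0. The median of the 11 was -0.57. After let-7i-5p, the most abundant members were let-7f-5p at -0.11 (SE 0.32, edgeR FDR = 0.878), let-7c-5p at -1.20 (SE 0.61, edgeR FDR = 0.298) and let-7b-5p at -1.52 (SE 0.68, edgeR FDR = 0.248), none of them called. The summed level of the family ran from 50693 to 100462 CPM (median 60267) in the placebo libraries and from 26824 to 47861 CPM (median 38986) in the PTH libraries.

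miR-24-3p held 3890.4, 3033, 6376 and 6367 CPM in PTH replicates 1 to 4 and 6414, 16204, 8361 and 9938 CPM in placebo replicates 1 to 4. The groups came close, with the highest PTH library just under the lowest placebo library, and the log2 fold change was -1.05 (SE 0.42, edgeR FDR = 0.185). miR-24 is made with miR-23 and miR-27 from shared clusters, and 1 of 6 tested members of the trio fell and none rose, with a median of -0.36. miR-23a-3p was at -0.61 (SE 0.36, edgeR FDR = 0.407), miR-23b-3p at -0.88 (SE 0.43, edgeR FDR = 0.273) and miR-27b-3p at 0.02 (SE 0.34, edgeR FDR = 0.968). miR-151-5p held 397, 474, 676 and 638 CPM in PTH replicates 1 to 4 and 808, 1491, 862 and 1103 CPM in placebo replicates 1 to 4. For miR-151-5p the log2 fold change was -0.95 (SE 0.39, edgeR FDR = 0.198), the smallest of the 20 falls.

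The largest fall was that of miR-455-3p, which is enriched in chondrocytes. miR-455-3p held 105, 63.2, 85.8 and 140.4 CPM in PTH replicates 1 to 4 and 71.7, 740.0, 1938 and 809 CPM in placebo replicates 1 to 4. The PTH libraries were uniformly low, and placebo replicate 1 lay among them while the other placebo libraries were far above. This gave a log2 fold change of -3.10 (SE 0.78, edgeR FDR = 0.112), resting on 2 to 48 reads per PTH library. Its other arm, miR-455-5p, was at 0.20 (SE 0.38, edgeR FDR = 0.787), and the chief cartilage miRNA, miR-140-3p, at -0.25 (SE 0.45, edgeR FDR = 0.787) with 22746 ± 11514 CPM with PTH against 26952 ± 11564 CPM with placebo (SD, n = 4 each). Of the 4 cartilage miRNAs tested, 1 fell and none rose.

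In the list of osteogenesis regulators, which does not hold miR-30 or miR-214, 1 of 9 tested was called, miR-31a-5p, beside 16.8% of all miRNAs tested. miR-31a-5p held 20.9, 63.2, 85.8 and 70.2 CPM in PTH replicates 1 to 4 and 62.2, 356, 469 and 209 CPM in placebo replicates 1 to 4. Placebo replicate 1 again lay within the PTH range. Its log2 fold change was -2.07 (SE 0.62, edgeR FDR = 0.112), from 1 to 24 reads per PTH library. miR-31a-3p had 0 reads in all 8 libraries, which allows up to 5.54 CPM over the PTH group and 1.42 CPM over the placebo group, counting error only. The more abundant members of that list were at miR-22-3p 0.42, miR-21-5p 0.11, miR-218a-5p 0.45 and miR-34a-5p -0.08, none called. Of the collagen-regulating miR-29 family, 0 of 3 tested were called, with miR-29a-3p -0.11, miR-29c-3p 0.18 and miR-29b-3p 0.48. miR-214-3p, made with miR-199a in mesenchymal cells and known to restrain osteoblast activity, held 481, 411, 1161 and 767 CPM with PTH and 603, 4023, 3103 and 2606 CPM with placebo, a log2 fold change of -1.85 (SE 0.57, edgeR FDR = 0.124). miR-199a-5p from the same cluster was at 0.10 (SE 0.31, edgeR FDR = 0.885) and miR-199a-3p at -0.53 (SE 0.63, edgeR FDR = 0.686), so 1 of the 3 tested fell and none rose.

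miR-133a-3p, a striated muscle miRNA, was the most abundant miRNA by mean CPM over the 8 libraries. In every PTH library and in placebo replicate 1, miR-143-3p was higher. miR-133a-3p held 69441, 57187, 41405 and 55796 CPM in PTH replicates 1 to 4 and 55624, 112056, 236090.2 and 394476 CPM in placebo replicates 1 to 4. All PTH libraries and placebo replicate 1 were low, and the other 3 placebo libraries ranged widely above them. On the log2 scale, miR-133a-3p changed by -1.83 (SE 0.53, edgeR FDR = 0.112). Its near copy miR-133b-3p was at -0.95 (SE 0.55, edgeR FDR = 0.407) and the other arm, miR-133a-5p, at -0.08 (SE 0.59, edgeR FDR = 0.928). The hairpin of miR-1-3p, another muscle miRNA, lies within 10 kb of that of miR-133a in RefSeq. miR-1b held 9579.5, 55007, 4730.1 and 3970.4 CPM in PTH replicates 1 to 4 and 6189, 2793, 2121 and 3717 CPM in placebo replicates 1 to 4. PTH replicate 2 stood far above every other library, and PTH replicates 3 and 4 lay below placebo replicate 1. For miR-1b the log2 fold change was 2.30 (SE 0.79, edgeR FDR = 0.17) and that of miR-1-3p 1.53 (SE 0.64, edgeR FDR = 0.198), while miR-206-3p with the same seed was at 0.75 (SE 0.53, edgeR FDR = 0.476). miR-1-3p rested on PTH replicate 2, without which its value was 0.32, and it was 0.10 without PTH replicates 1 and 2 and -0.58 on all reads. Reads of miR-1b were 4.63, 4.88, 3.37 and 2.20 times those of miR-1-3p in PTH replicates 1 to 4 and 4.37, 1.84, 2.10 and 2.15 times in placebo replicates 1 to 4. Of 8 striated muscle miRNAs tested, 2 rose and 1 fell. Their summed level ran from 65669 to 407093 CPM (median 181509.8) in the placebo libraries and from 49174 to 128939.9 CPM (median 73917) in the PTH libraries, and miR-133c and miR-208a-5p were at 0 in all 8. The largest part of that sum was miR-133a-3p in every library. Whether the amount of muscle on the bone differed between groups was not tested.

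Several further falls were of blood, mesenchymal or widely expressed miRNAs. miR-150-5p held 1422, 789.9, 495 and 521 CPM in PTH replicates 1 to 4 and 1105, 3204, 2912 and 3579 CPM in placebo replicates 1 to 4. miR-150 is typical of mature lymphocytes, and its log2 fold change was -1.76 (SE 0.50, edgeR FDR = 0.112). The other abundant leukocyte miRNAs did not pass, with miR-142-3p 0.32, miR-223-3p -0.07 and miR-146a-5p -0.51, so that 1 of 6 leukocyte miRNAs tested fell and 0 rose. miR-125b-5p held 14327, 11532, 8955 and 9515 CPM in PTH replicates 1 to 4 and 10279, 38321, 32394 and 29655 CPM in placebo replicates 1 to 4. The log2 change of miR-125b-5p was -1.32 (SE 0.43, edgeR FDR = 0.133), with miR-125a-5p of the same seed at -0.69 (SE 0.49, edgeR FDR = 0.476). miR-149-5p held 439, 758, 909 and 1094 CPM in PTH replicates 1 to 4 and 832, 2707, 3478 and 3469 CPM in placebo replicates 1 to 4. Placebo replicate 1 was within the PTH range, and the log2 fold change was -1.70 (SE 0.50, edgeR FDR = 0.112). Both arms of miR-423 fell, miR-423-3p at -1.78 (SE 0.63, edgeR FDR = 0.175) and miR-423-5p at -1.44 (SE 0.59, edgeR FDR = 0.198). The remaining falls were miR-328a-3p -2.60, miR-484 -2.28, miR-193b-3p -2.01, miR-139-5p -1.58, miR-378a-5p -1.42, miR-30b-5p -1.27 and miR-339-5p -1.10, with FDRs from 0.112 to 0.198. Of these, miR-484, miR-193b-3p, miR-328a-3p and miR-139-5p had a PTH library with only 1 or 2 reads.

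Among the rises, miR-99a-3p was the only one whose groups did not overlap. miR-99a-3p held 565, 506, 606 and 535 CPM in PTH replicates 1 to 4, 483 CPM in placebo replicate 1 and 144 to 162 CPM in the other placebo libraries. All PTH libraries were close together and just above placebo replicate 1, which stood well above the other placebo libraries. A log2 fold change of 1.26 (SE 0.47, edgeR FDR = 0.175) resulted. Its abundant other arm, miR-99a-5p, was at 0.51 (SE 0.33, edgeR FDR = 0.429), with 45452 ± 11738 CPM with PTH against 31919.8 ± 6778 CPM with placebo (SD, n = 4 each). miR-100-5p, with the same seed family as miR-99a-5p, held 10499.8, 10964, 5967 and 5843 CPM with PTH and 5764, 4012, 4208 and 5278 CPM with placebo. Those groups did not overlap, but the log2 fold change of 0.79 (SE 0.37, edgeR FDR = 0.271) was not called, and without PTH replicates 1 and 2 it was 0.22. Of 8 tested miRNAs of miR-99, miR-100 and miR-125, 1 rose and 1 fell.

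The miR-30 family, whose 5p arms share 1 seed and which counts Runx2 and Smad1 among its known targets, had the most calls of any list, 4 rises and 1 fall of 8 tested. miR-30a-5p held 69086, 151720.1, 26149 and 25013 CPM in PTH replicates 1 to 4 and 38251, 9839, 10442 and 21682 CPM in placebo replicates 1 to 4. PTH replicates 1 and 2 were the highest libraries, and placebo replicate 1 was above PTH replicates 3 and 4. The log2 fold change was 1.76 (SE 0.64, edgeR FDR = 0.175), with miR-30a-3p at 1.54 (SE 0.59, edgeR FDR = 0.175). miR-30e-5p was at 1.52 (SE 0.56, edgeR FDR = 0.175) and miR-30e-3p at 1.58 (SE 0.59, edgeR FDR = 0.175), so both arms of both hairpins rose. Other members did not follow: miR-30b-5p fell, and miR-30c-5p at -0.73 (SE 0.44, edgeR FDR = 0.407) and miR-30d-5p at 0.37 (SE 0.44, edgeR FDR = 0.686) were not called. The family median was 1.19, and 0.20 without PTH replicates 1 and 2.

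miR-143-3p held 245889, 361354, 74773 and 62469.5 CPM in PTH replicates 1 to 4 and 125565, 30402, 25568 and 52060.2 CPM in placebo replicates 1 to 4. PTH replicates 1 and 2 were the highest libraries, followed by placebo replicate 1. Its log2 fold change was 1.67 (SE 0.65, edgeR FDR = 0.177), while its cluster neighbours miR-145-5p and miR-145-3p were at -0.70 (SE 0.42, edgeR FDR = 0.407) and 0.22 (SE 0.42, edgeR FDR = 0.787) and its other arm miR-143-5p at -0.33 (SE 0.42, edgeR FDR = 0.708). Of the 4 smooth muscle miRNAs tested, 1 rose and none fell. miR-148a-5p held 230.1, 1959, 101 and 64.4 CPM in PTH replicates 1 to 4 and 201, 49.6, 64.3 and 41 CPM in placebo replicates 1 to 4. PTH replicate 2 was again far above the rest, and the log2 fold change was 2.64 (SE 1.01, edgeR FDR = 0.175), with the far more abundant miR-148a-3p at 1.48 (SE 0.73, edgeR FDR = 0.278). miR-532-5p held 2615, 3697, 697 and 860.2 CPM in PTH replicates 1 to 4 and 1268, 363, 396 and 445 CPM in placebo replicates 1 to 4. On the log2 scale the change was 1.66 (SE 0.63, edgeR FDR = 0.175), and placebo replicate 1 exceeded PTH replicates 3 and 4.

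The libraries behind the calls could be seen in the order of the values. Placebo replicate 1 was the lowest placebo library for all 20 falls and the highest for 8 of the 10 rises. The same orders were not counted over all miRNAs tested, so they are not read as particular to the calls. Once it was left out, the test called 89 miRNAs (41 higher, 48 lower), all 30 among them. Leaving out any of the other placebo libraries, replicate 2, 3 or 4, left 0 calls, with 19, 19 and 22 miRNAs at an unadjusted p below 0.05. Without PTH replicate 1, 11 were called (4 higher, 7 lower), and without PTH replicate 2, 11 (0 higher, 11 lower), whereas 29 and 41 were called without PTH replicates 3 and 4.

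The rises and the falls parted when both shallow PTH libraries were left out together, a comparison added after the values were seen. The 2 highest PTH libraries were replicates 1 and 2 for 9 of the 10 rises, an order not counted over all miRNAs tested. On PTH replicates 3 and 4 alone, the median log2 fold change of the 10 rises was 0.26, with a range of -0.13 to 1.22, and 9 of them were below 0.6. Only miR-99a-3p kept its size (1.22). miR-1b went to 0.15, miR-143-3p to 0.15, miR-30a-5p to 0.27 and miR-148a-5p to -0.13. The others were miR-1-3p 0.10, miR-532-5p 0.26, miR-30e-5p 0.33, miR-30e-3p 0.39 and miR-30a-3p 0.53. The median of the 20 falls was -1.71, and 18 of them were at or below -1. Above -1 were miR-24-3p at -0.77 and miR-151-5p at -0.79, both among the falls without overlap and neither called here. That comparison called 21 miRNAs, 20 lower and 1 higher (miR-539-5p), and 8 of them were among the 30, all of them falls.

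**Figure D3:**
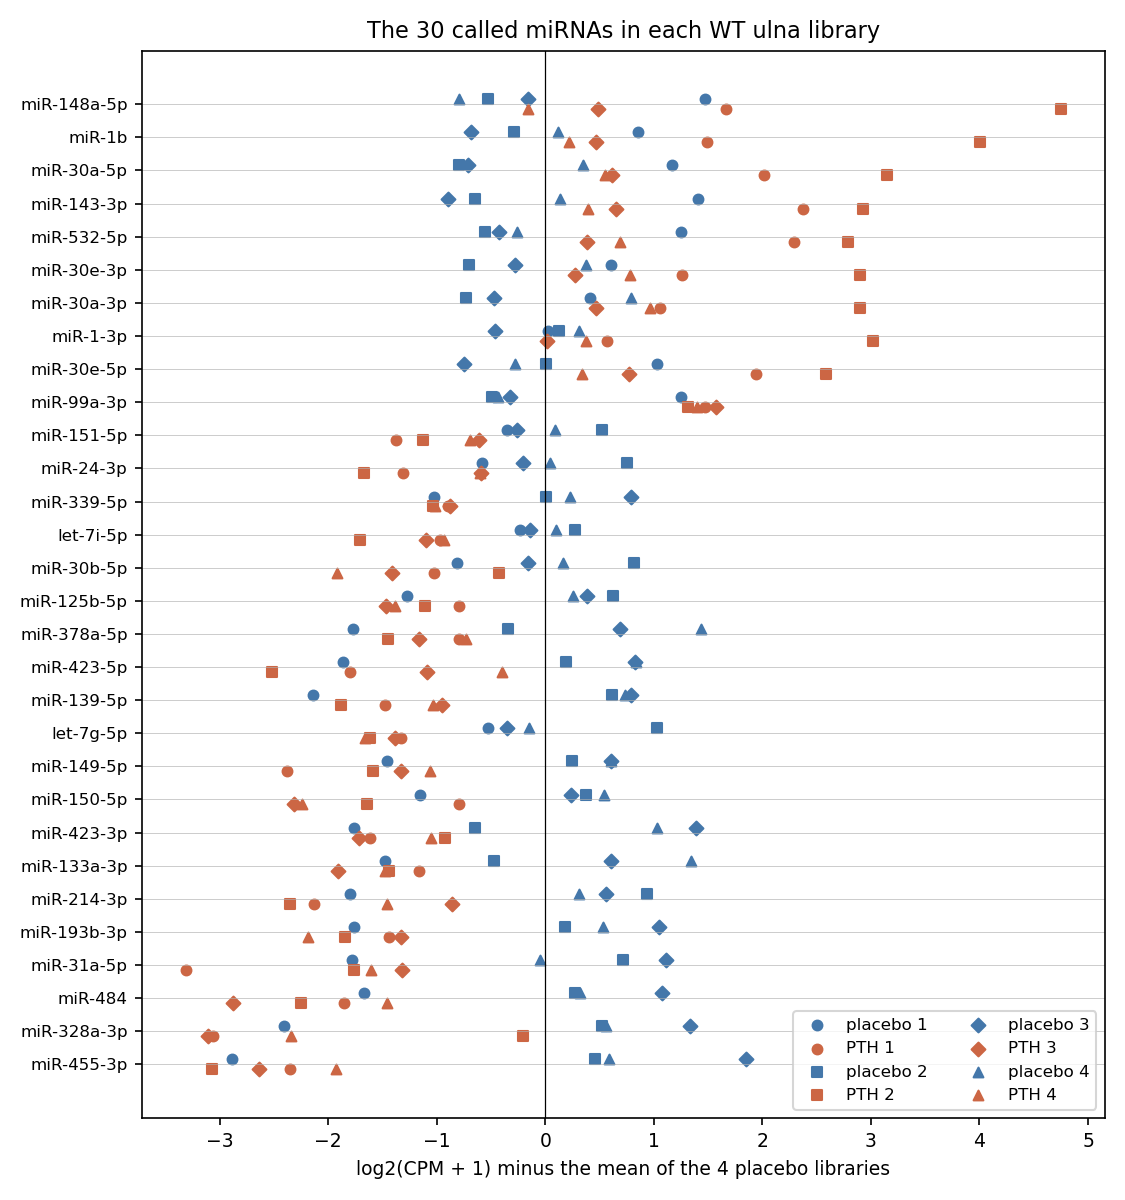
Level of each of the 30 called miRNAs in each WT ulna library, as log2(CPM + 1) minus the mean of the 4 placebo libraries, with placebo in blue, PTH in orange and 1 marker shape per replicate. PTH replicate 2 (orange square) is the highest PTH library in 9 of the 10 rises at the top, and placebo replicate 1 (blue circle) is the lowest placebo library in all 20 falls.

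**Figure D4:**
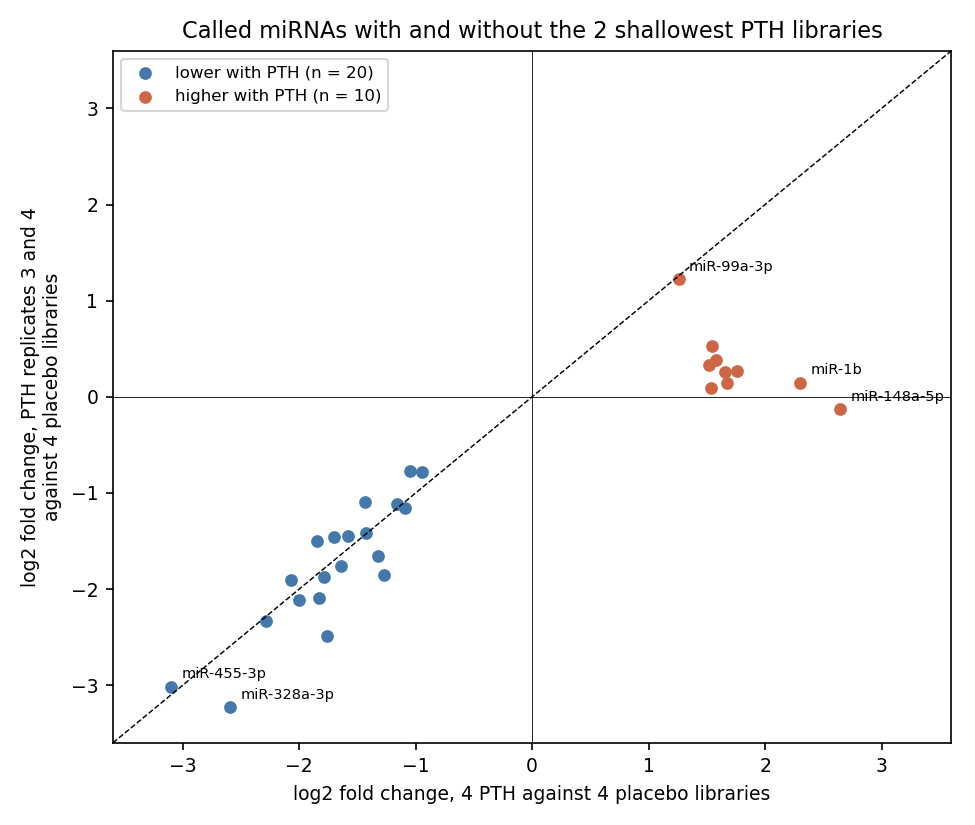
Log2 fold change of each called miRNA from PTH replicates 3 and 4 against all 4 placebo libraries, plotted against the value from all 8 libraries, with a dashed line of equality. The 20 falls (blue) lie near the line, while 9 of the 10 rises (orange) lie below 0.6.

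Fold changes varied with base composition. Over the 163 tested miRNAs with a RefSeq sequence, the log2 fold change was lower at higher GC content (Pearson r = -0.31, Spearman rho = -0.29, across miRNAs, which are not independent replicates), and on PTH replicates 3 and 4 alone r was -0.30 over 224 miRNAs. The 9 rises with a sequence had a median GC content of 45.5%, the same as the 163. Only 15 of the 20 falls had a sequence, fewer than 80%, so no median is read for them. Within libraries, levels changed by -0.22, -0.43, -0.13 and 0.09 log2 units per 10 percentage points of GC in PTH replicates 1 to 4, relative to the mean of the 8, and by -0.26, 0.22, 0.35 and 0.39 in placebo replicates 1 to 4. Placebo replicate 1 was the only placebo library with a negative trend, which 3 of the 4 PTH libraries also had. With each library's GC trend removed, 22 of the miRNAs with a sequence were called (9 higher, 13 lower), 18 of the 24 called ones among them, against 17 (6 higher, 11 lower) in the same miRNAs uncorrected. The 6 of the 24 not called after that correction were miR-139-5p, miR-24-3p, miR-339-5p, miR-423-5p, miR-378a-5p and miR-1-3p.

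Markers of other cell types were read as whole lists, beside the -0.08 median of all miRNAs tested. Erythrocyte miRNAs (miR-451, miR-144 and miR-486) had 0 of 4 called and a median of 0.21, with a summed level from 9149 to 13475 CPM (median 10251) in the placebo libraries and from 8213 to 17125 CPM (median 11799) in the PTH libraries. Leukocyte miRNAs had a median of -0.29 and summed from 8229 to 11953 CPM (median 11104) in the placebo libraries and from 5065 to 11085 CPM (median 8379) in the PTH libraries, with miR-155-3p at 0. Endothelial miRNAs had 0 of 4 called, a median of -0.39 and the abundant miR-126a-3p at -0.28. Their sum ran from 21079.7 to 24386 CPM (median 22586) in the placebo libraries and from 9731 to 26610.5 CPM (median 20951) in the PTH libraries, with miR-126b at 0. Smooth muscle miRNAs had a median of -0.06 and summed from 36945 to 132132 CPM (median 54696) in the placebo libraries and from 69363 to 368273 CPM (median 168045) in the PTH libraries. Most of that sum was the called member miR-143-3p, with a mean of 58399 CPM with placebo and 186121 CPM with PTH. For miR-145-5p the means were 10053 and 6198 CPM. The miR-199a and miR-214 list had a median of -0.53 and summed from 21836 to 41690.0 CPM (median 25423) in the placebo libraries and from 17204 to 29764 CPM (median 25297) in the PTH libraries. Cartilage miRNAs had a median of -0.30 and summed from 17593 to 48089 CPM (median 27918) in the placebo libraries and from 14316 to 39368 CPM (median 23028) in the PTH libraries. The 4 liver miRNAs had 7 reads in all 8 libraries together and none was tested. Relative to all fitted miRNAs, the endothelial, leukocyte, smooth muscle and miR-103 and miR-107 medians changed sign between scalings. Those medians were taken over all fitted members, which for the 7 leukocyte miRNAs gave -0.07 under TMM. Without PTH replicates 1 and 2 the medians were -1.17 for leukocyte, 0.12 for endothelial, -1.50 for miR-199a and miR-214, -0.72 for cartilage and 0.21 for erythrocyte miRNAs, beside -0.16 for all miRNAs tested.

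Other families showed few calls. The miR-148 and miR-152 family had 1 rise of 4 tested (median 1.04, and -0.53 without PTH replicates 1 and 2). The miR-10 and miR-196 list had 0 of 3 called, with a median of 1.26 that became -1.26 without the same libraries. No member was called of the 7 tested of miR-15, miR-16, miR-195 and miR-497 (median -0.49), the 10 of miR-17-92 and miR-106b-25 (-0.08), the 6 of miR-181 (-0.03) or the 4 of the Dlk1-Dio3 cluster (0.32). The same held for the 2 tested each of miR-26 (0.19), miR-130 and miR-301 (0.26), miR-103 and miR-107 (-0.10) and miR-146 (-0.21). The median of the collagen-regulating miR-29 family was 0.18, that of the osteogenesis regulators 0.11, that of miR-99, miR-100 and miR-125 0.36 and that of striated muscle 0.25. Without PTH replicates 1 and 2, the median of striated muscle turned to -0.29, that of the Dlk1-Dio3 cluster to -0.15 and that of miR-103 and miR-107 to 0.27. That of miR-99, miR-100 and miR-125 went to 0.08, that of miR-146 to -0.93, that of miR-17-92 and miR-106b-25 to -0.33 and that of the osteogenesis regulators to 0.38.

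Of the 10 most abundant miRNAs, 3 were called: miR-133a-3p, miR-143-3p and miR-30a-5p. The other 7 were at miR-26a-5p 0.31, miR-99a-5p 0.51, miR-101a-3p 1.03, miR-29a-3p -0.11, miR-181a-5p -0.50, miR-378a-3p 0.50 and miR-140-3p -0.25. The 3 miRNAs with the smallest p outside the calls were miR-341 at 1.21 (SE 0.52, edgeR FDR = 0.221), miR-365-3p at -1.23 (SE 0.55, edgeR FDR = 0.248) and let-7b-5p at -1.52 (SE 0.68, edgeR FDR = 0.248). Among the 16 pairings of a called miRNA with an other arm that was fitted, 12 had the same sign, and the arm was itself called in 6, those of miR-30a, miR-30e and miR-423. These hairpins were counted from each arm, so the 16 pairings are not all distinct. The arms parted for miR-378a, with miR-378a-5p at -1.42 and miR-378a-3p at 0.50, and for miR-143 and miR-455. Beside the fall of miR-125b-5p, miR-125b-2-3p was at 0.48 and miR-125b-1-3p at -0.64.

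Whether PTH acted alike in diabetic bone was addressed with the 8 ZDF ulna libraries, which share none with the WT comparison. There, 0 of 215 miRNAs were called by edgeR (0%), 13 had an unadjusted p below 0.05, and DESeq2 called 1, miR-132-3p. Of the 30 miRNAs called in WT ulna, 29 were fitted in ZDF ulna and 23 had the same direction, against 119 of 178 among all miRNAs tested in WT ulna. The median log2 fold change of the 10 rises was 0.48 in ZDF and that of the falls -0.21, beside 1.62 and -1.67 in WT, where these miRNAs had been chosen by that contrast. An unadjusted p below 0.05 was reached by 3, miR-1b at 1.17 (SE 0.52), miR-148a-5p at 1.10 (SE 0.48) and miR-339-5p at -1.04 (SE 0.46). let-7g-5p and let-7i-5p had values of 0.30 and 0.10.

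The difference between WT and ZDF responses was tested as an interaction over all 16 ulna libraries. It called 0 of 243 miRNAs (0%) with edgeR, 13 had an unadjusted p below 0.05, and DESeq2 called 1, let-7g-5p. Of the 30 miRNAs, 8 had an unadjusted interaction p below 0.05, a count that shares its WT libraries with the choice of the 30. let-7g-5p had the largest of these relative to its error, with a log2 difference of -1.97 (SE 0.58). The calls in WT and their absence in ZDF ulna do not by themselves show that the responses differed. Without WT placebo replicate 1 the interaction called 21 miRNAs, and without ZDF placebo replicate 2 it called 7. Leaving out ZDF PTH replicate 4 raised the ZDF calls to 16.

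In WT serum, 5 PTH against 5 placebo libraries gave 0 calls of 170 miRNAs tested by edgeR (0%), 2 had an unadjusted p below 0.05, and DESeq2 called 0. Without PTH serum replicate 3, 1 was called, miR-802-5p. Of the 24 called bone miRNAs that were fitted in serum, 13 had the same direction as in bone. These were 13 of the 18 falls and 0 of the 6 rises, and the medians were -0.11 for the falls and -0.23 for the rises. Directions were not counted over all miRNAs fitted in serum, so these counts are not read as particular to the calls. miR-31a-5p was at 0.52 (SE 0.55) in serum, and miR-139-5p, at -1.10 (SE 0.56), moved furthest of the 24 without being called. Serum and bone libraries were scaled separately, so only directions and fold changes are set side by side. According to the study's methods, bone came from the rats that gave serum, with exceptions only among PTH-treated ZDF rats. The WT serum and WT ulna comparisons therefore share animals. The labels do not say which serum and ulna came from the same rat, and no pairing was used.

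**Figure D5:**
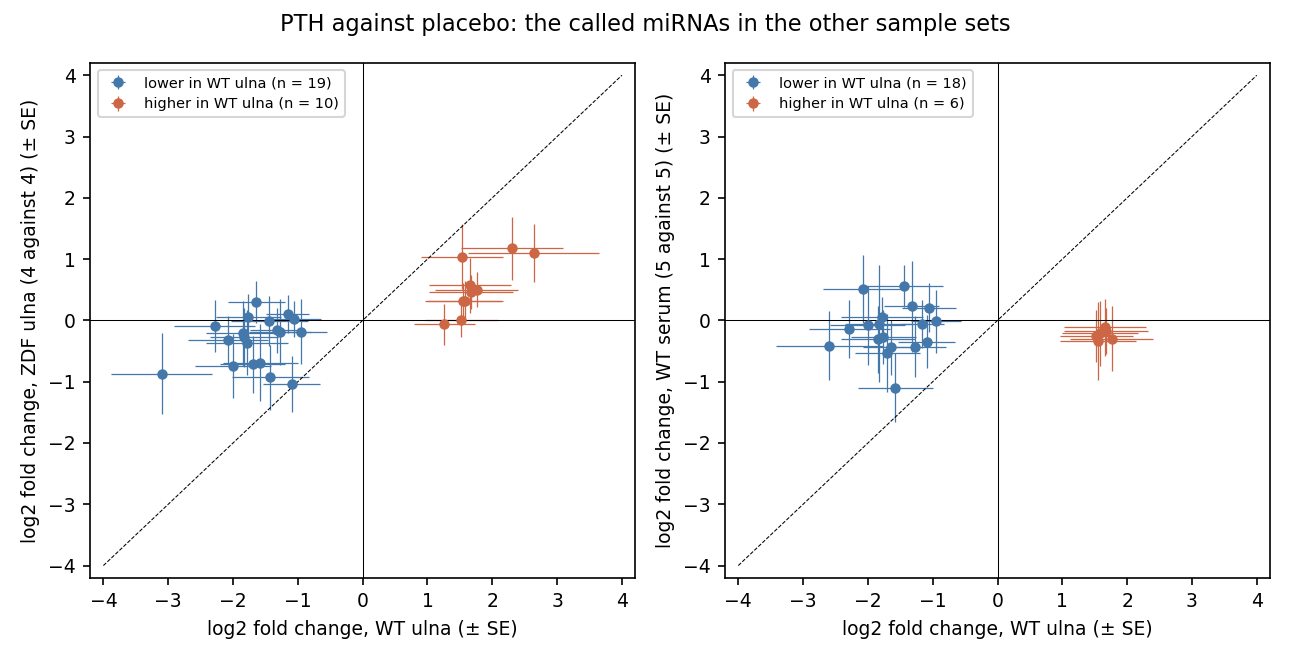
Log2 fold change of PTH against placebo for the called miRNAs in ZDF ulna (left) and WT serum (right) against that in WT ulna, with bars of 1 SE and a dashed line of equality. In ZDF ulna 8 of the 10 rises (orange) and 15 of the 19 falls (blue) kept their direction at smaller size, while in serum all 6 rises fitted lay below 0.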

How the data were processed

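Small RNA libraries were made from total RNA with a RealSeq kit. The authors trimmed adapters with cutadapt, dropped reads shorter than 17 nt, and used Bowtie against Rnor 6.0 (up to 2 mismatches) and then rat miRBase (1 mismatch). The deposited values are raw counts of reads per miRNA, not normalized, beside RPM columns in which the authors divided by all reads of the library. RPM served only to recover each library's total reads, and a second RPM column was not used. Rows for added controls were kept out of library sizes.

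Counts of the 763 miRNAs were filtered with filterByExpr, scaled by TMM and tested with edgeR 4.0.16 (R 4.3.3) by the quasi-likelihood test. Independent filtering on mean CPM (50 quantiles, up to 0.95) was adapted from DESeq2, as the study's methods describe, leaving miRNAs of at least 98.9 CPM in WT ulna, and called means a Benjamini-Hochberg FDR below 0.2. CPM is TMM-scaled throughout. Single miRNAs were compared by exact permutation of log2(CPM + 1) over libraries, two-sided. Replicates of WT ulna differed by more than sampling noise in every pair. The labels do not say that each library came from its own rat, so p-values measure the spread between these libraries. The labels give no shared replicate numbers, so no block was fitted. Alternatives covered filters, scalings, DESeq2 1.42.0, a covariate and left-out libraries. Named were the called miRNAs, the next 3 by p, those the study names for PTH in WT bone, the 10 most abundant, members of 24 lists, other arms and shared seeds. The comparison, the miRNAs and the lists were chosen with earlier results of these data known.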

Additional observations from a re-analysis of the deposited data

Results flagged for a closer look

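Of 64 groups of 4 libraries examined (30 miRNAs and 2 library measures in each treatment), 3 held a library that stood apart from the other 3. The groups share the same libraries, and the miRNAs were chosen by this contrast. A rate of 1 in 20 per group therefore gives no number to expect by chance. All 3 were placebo replicate 1: miR-139-5p at 52.6 CPM against 361 to 407 CPM, miR-99a-3p at 483 CPM against 144 to 162 CPM, and miR-532-5p at 1268 CPM against 363 to 445 CPM.

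The controls that the study's methods describe adding at serum extraction also had reads in bone. PTH replicate 2 had 65 such reads, against 4 to 12 in the other PTH libraries and 8 to 36 in the placebo libraries.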

How the results depend on the processing

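The count of 30 calls in WT ulna stayed within 1.5 times under RLE scaling and total miRNA reads (23 each), robust fitting (26), the newer edgeR fit (30), the quantile with the most calls (30), all 4 ulna groups in 1 fit (38) and DESeq2 (40). It became 52 with no filter beyond 1 read, 55 with that and the quantile with the most calls, 12 (all lower) without independent filtering, 68 on all reads, 58 on added controls, 17 among miRNAs with a RefSeq sequence, 0 at an FDR below 0.05 and 0 with the log2 miRNA share as a covariate, where 18 had an unadjusted p below 0.05. The cause was not tested, beyond the fewer miRNAs or added terms that these settings imply. Leaving out 1 library gave 0 to 89 calls in WT ulna, 0 to 16 in ZDF ulna, 0 to 21 for the interaction and 0 to 1 in WT serum, and log2 differences in miRNA share of -1.94 to -1.21 (-7.09 percentage points on the linear scale).

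In ZDF ulna DESeq2 called 1 miRNA. The interaction gave 1 call with the quantile with the most calls (let-7g-5p), 8 with that and no filter, and 1 with DESeq2. WT serum gave 1 with no filter (miR-192-3p) and 3 with that and the quantile with the most calls (miR-192-3p, miR-802-5p and miR-451-5p).

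Log2 fold changes that changed sign on all reads were miR-1-3p -0.58, miR-143-3p -0.085, miR-30a-3p -0.21, miR-30a-5p -0.058, miR-30e-3p -0.21, miR-30e-5p -0.23 and miR-532-5p -0.049. With the share as a covariate they were miR-1-3p -0.16, miR-143-3p -0.30, miR-148a-5p -0.99, miR-1b -0.45, miR-30a-5p -0.16, miR-30e-5p -0.058, miR-423-5p 0.046 and miR-532-5p -0.15, and without both shallow PTH libraries miR-148a-5p (-0.13).

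Depth limits the scarcer miRNAs, such as miR-484 and miR-31a-5p with a single read in the shallowest PTH libraries. miR-28-5p, miR-132-3p, miR-539-5p, miR-192-3p and miR-802-5p were named after their values were seen. Depth, miRNA share and base composition moved with treatment, and within 4 against 4 libraries their part cannot be told apart from that of PTH.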
